A study of Mus musculus with 8 samples.

Results

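Inflammatory chemokines and cytokines are small secreted proteins that attract and activate leukocytes. The 10 genes of this kind described here are Ccl2, Ccl3, Ccl4, Ccl5, Ccl6, Ccl8, Ccl9, Cxcl10, Il1b and Tnf. They were taken by name, each with every non-control probe whose RefSeq accession maps to its symbol. Each had 1 probe, and together they are 10 of the 21154 genes with a named probe on the array. The probes of Ccl2, Il1b and Tnf were printed at 10 spots each, and the others at 1 spot each.

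Brown adipose tissue (BAT) was taken from male C57BL/6NCrSlc mice after thoracic aortic constriction (TAC), which narrows the aorta and raises the load on the left ventricle, or after a sham operation (Sham). All were fed normal chow, underwent surgery when 11 weeks old and were 13 weeks old at collection. That is 2 weeks after surgery, as most labels state, while a description line in the labels gives 4 weeks. Each group had 4 independent samples, and Cy3-labelled RNA of each was hybridised to its own one-colour Agilent array, to ask how pressure overload of the heart bears on expression in BAT. The sources used here do not state whether a sample was 1 mouse, so p-values measure the spread between these samples.

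The scanner intensities of 7 arrays were used, those of Sham replicates 2 to 4 and TAC replicates 1 to 4. Sham replicate 1 was used only through the deposited table of all 8 arrays. A level is the log2 of a probe's intensity minus the 75th percentile of its array, so that a level of 0 lies at that percentile. Levels from the table lie 0.17 to 0.21 above those from the scanner files, and values of the 2 sources are kept apart in what follows. A spot is well above background where the scanner software marks it so. Sham replicates 2 to 4 had 64.3%, 58.4% and 62.7% of their spots in this class, and TAC replicates 1 to 4 had 59.7%, 57.4%, 54.5% and 59.7%.

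As background, chemokines of the CC and CXC families bind receptors coupled to G proteins on leukocytes, and Ccl2 is the classic attractant of monocytes. Tumour necrosis factor and interleukin-1 beta are made chiefly by activated macrophages, act through NF-kB and induce chemokines in other cells, while Cxcl10 is induced by interferons. In adipose tissue these signals are known from resident and recruited macrophages, and inflammatory cytokines are known to lower thermogenic gene expression in brown adipocytes.

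The tissue label was checked against brown adipocyte markers, of which 3 are given here as bright on every array. Ucp1, the uncoupling protein, lay between 8.37 and 9.70 on the 7 arrays, Cidea between 10.08 and 10.67, and Adipoq, which encodes adiponectin, between 8.02 and 8.37. Fabp4 and Cox8b were bright as well. The rest of the markers were lower, with Prdm16 between -0.39 and 0.36 and Elovl3 between -3.78, on TAC replicate 1, and 2.06. TAC replicate 1 was singled out with earlier results of these arrays known. On it 1200 of 33341 probes, or 3.60%, were at least 2-fold above the mean of TAC replicates 2 to 4, and 1101, or 3.30%, at least 2-fold below it, shares that were not computed for the other TAC arrays. Its share of spots well above background lay within the range of the other arrays. All 7 arrays were scanned at 1 time on 1 slide, with Sham in its first row and TAC in its second, so row and operation cannot be told apart. The number of arrays limits the precision of every comparison.

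On TAC replicate 1 the levels of all 10 chemokines and cytokines were above those on each of the 7 other arrays of the table. This holds for 17.3% of all probes tested. The measured signal exceeded the mean of TAC replicates 2 to 4 by at least 1 on the log2 scale for 10 of 10 genes, with a median of 2.45, against -0.09 over all probes tested. For the 6 genes well above background on all 7 arrays, the excess was between 1.23 (Ccl6) and 3.94 (Cxcl10). For Ccl4, Il1b and Tnf none of those 3 TAC arrays was well above background, and for Ccl3 only TAC replicate 4 was. A bound in place of the fold reached 2-fold for Ccl4 but not for Il1b and Tnf. With normexp background correction 7 of the 10 genes had an excess of 2-fold. That correction was run with an offset of 50 units added to each intensity, which by itself shrinks the folds of dim probes. These are bulk tissue values, in which more cells of a type and more RNA per cell cannot be told apart.

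**Figure D1:**
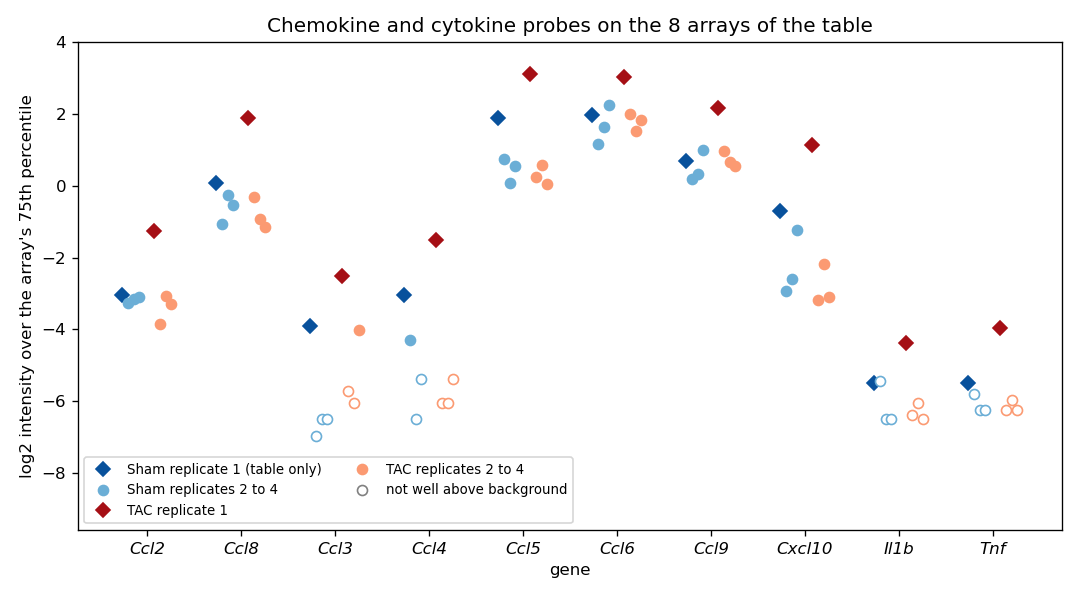
Level of each chemokine and cytokine probe on each of the 8 arrays of the table, as log2 of the intensity over the array's 75th percentile; diamonds are replicate 1 of each group, circles are replicates 2 to 4, and open symbols mark probes not well above background (not known for Sham replicate 1, which has only table values here). TAC replicate 1 is the highest array for 10 of 10 genes, and Sham replicate 1 is second for 7.

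Between the groups, the difference of the means was smaller than the SD of the TAC arrays for each gene except Ccl3. The TAC mean was above the Sham mean for 10 of 10 genes, of which 6 were tested. Of all probes tested, 44.2% had a higher TAC mean. The median difference was 0.50 over the 10 genes and 0.47 over the 6 tested, against -0.03 over all probes tested. The other 4 genes were mostly at background. Among probes well above background on no array, some also read higher in TAC (Il6 and Ccr1, each by 0.32) and others lower (Il17a, -0.22). Without TAC replicate 1 the TAC mean was higher for 3 of 10 genes (Ccl3, Ccl6 and Ccl9), against 46.8% of all probes tested, and the median difference was -0.15. The direction thus rested on that array for the other 7 genes.

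Of the 10 genes, 6 passed the filter on dim probes, which needs 3 or more of the 7 arrays with a signal well above background, and were tested with limma. Ccl3, Ccl4, Il1b and Tnf did not pass it. Of the 6 tested, 0 had an adjusted p under 0.05 (0.560 to 0.882) and 0 had an unadjusted p under 0.05. Over all 33364 probes tested, limma likewise called 0 higher (a share of 0%) and 0 lower after TAC at an adjusted p of 0.05. At an unadjusted p of 0.05 it gave 1462 higher, or 4.38%, and 2814 lower. Without TAC replicate 4 it called 7 higher and 1 lower at an adjusted p of 0.05, with 0 of the 6 chemokine genes among them. The methods' t-test gave 1602 higher and 2587 lower at its own threshold, and 0 of either after Benjamini-Hochberg adjustment.

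Ccl2 and Ccl8 encode monocyte chemoattractants, of which Ccl2 acts through Ccr2 and mouse Ccl8 through Ccr8. The Ccl2 level was -3.49, -3.35 and -3.29 on Sham replicates 2 to 4, and -1.46, -4.04, -3.24 and -3.48 on TAC replicates 1 to 4. TAC replicate 1 was high, and the other 3 TAC arrays lay on both sides of Sham, with the lowest value of all on TAC replicate 2. The mean was -3.06 ± 1.12 (SD, n = 4) in TAC and -3.38 ± 0.10 (SD, n = 3) in Sham. The difference was 0.32 (standard error 0.56, limma adjusted p = 0.826), and it was -0.21 without TAC replicate 1. That array exceeded the mean of the other TAC arrays by 2.13 (4.38-fold), against an SD of those 3 of 0.41. With normexp background correction this excess was 1.17.

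The Ccl8 level was -1.27, -0.45 and -0.73 on the Sham arrays, and 1.70, -0.50, -1.10 and -1.33 on TAC replicates 1 to 4. Again 1 TAC array was high and the others overlapped with Sham. TAC replicate 1 was 2.68 (6.42-fold) above the mean of the other TAC arrays, whose SD was 0.43. The difference between the groups was 0.51 (standard error 0.71, limma adjusted p = 0.780), and -0.16 without that array.

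Ccl3, Ccl4 and Ccl5 encode chemokines that attract macrophages, T cells and natural killer (NK) cells. Ccl5, which activated T and NK cells make in quantity, was at 0.55, -0.11 and 0.36 on the Sham arrays, and at 2.92, 0.07, 0.40 and -0.12 on TAC replicates 1 to 4. It was well above background on all 7 arrays. TAC replicate 1 was 2.81 (7.02-fold) above the mean of the other TAC arrays, and those 3 overlapped with Sham almost entirely. The TAC minus Sham difference was 0.55 (standard error 0.72, limma adjusted p = 0.767), and -0.16 without TAC replicate 1.

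The Ccl4 probe was well above background only on Sham replicate 2, at -4.51, and on TAC replicate 1, at -1.69. On the 5 other arrays its signal was between -6.64 and -5.55. The level on TAC replicate 1 was at least 7.32-fold above that on the other TAC arrays. Such a bound, like those that follow, sets the bright mean against the lowest signal that was well above background on each dim array, or against the dim probe's own signal where that was higher. Without TAC replicate 1 the measured TAC mean lay below the Sham mean, by -0.43, and no fold is given between groups at background. With normexp background correction the excess on TAC replicate 1 over the other TAC arrays was 1.52.

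Ccl3 was well above background only on TAC replicate 1, at -2.69, and on TAC replicate 4, at -4.18. Its signal was -7.15, -6.69 and -6.75 on the Sham arrays, and -5.93 and -6.28 on TAC replicates 2 and 3. So the 7 arrays did not overlap between the groups, but on 5 of them the probe was not measured above background. TAC replicate 1 alone was at least 4.82-fold above Sham replicates 2 to 4, and no fold is given for the TAC mean, which includes dim arrays. The table also places Sham replicate 1 above TAC replicates 2 to 4, so that the groups overlap over 8 arrays. Without TAC replicate 1 the measured TAC mean was 1.40 above Sham, with TAC replicate 4 as the only array above background. With normexp background correction the difference between the groups was 0.40, against 2.09 without it.

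Ccl6 and Ccl9 encode ligands of Ccr1 that are made by myeloid cells. Ccl6 was at 0.96, 1.45 and 2.07 on the Sham arrays, and at 2.85, 1.83, 1.34 and 1.67 on TAC replicates 1 to 4. Ccl9 was at -0.01, 0.13 and 0.82 on the Sham arrays, and at 1.99, 0.81, 0.49 and 0.37 on the TAC arrays. For both genes TAC replicate 1 was the highest and the other TAC arrays lay within the range of Sham. Their excess on TAC replicate 1 was 1.23 (2.35-fold) for Ccl6 and 1.43 (2.70-fold) for Ccl9. The differences between the groups were 0.43 (standard error 0.40, limma adjusted p = 0.665) and 0.60 (standard error 0.42, limma adjusted p = 0.560). Without TAC replicate 1 they were 0.12 and 0.24, smaller than the SD of the Sham arrays, which was 0.56 and 0.44.

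Cxcl10 encodes a ligand of Cxcr3 that interferons induce and that attracts T and NK cells. It was at -3.14, -2.78 and -1.43 on the Sham arrays, and at 0.95, -3.35, -2.36 and -3.28 on TAC replicates 1 to 4. Sham replicate 4 was above TAC replicates 2 to 4, and TAC replicate 1 above all. The excess on TAC replicate 1 was 3.94 (15.4-fold), against an SD of the other TAC arrays of 0.55, and ranked 11 among 33341 probes. With normexp background correction the excess on that array was 2.86. The difference between the groups was 0.44 (standard error 1.07, limma adjusted p = 0.882), and -0.55 without that array. The TAC mean was -2.01 ± 2.02 (SD, n = 4) and the Sham mean -2.45 ± 0.90 (SD, n = 3). The SD in TAC was thus larger than the difference between the groups.

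Since the members stood high together on 1 array, their promoters are given where letters known from inducible chemokine genes were found. RefSeq promoter windows of GRCm38.p6, the 250 bases before the start of the gene, were at hand for 7 of the 10 genes (not Ccl2, Ccl4 and Ccl5). They were searched on both strands for the NF-kB-like letters GGGANNTTC and GGAANTTCC and for the interferon-response letters GAAANNGAA, and 2 of the 7 held a match. Of all 32851 windows of that length, 3.23% held GGGANNTTC, 0.813% held GGAANTTCC and 7.13% held GAAANNGAA. A match describes letters and is not a binding site. The Cxcl10 window lies at chr5:92348890-92349139 on the minus strand. Capitals mark GAAAGTGAA, 213 to 205 bases before the start, and a run in which GGGANNTTC (159 to 151 bases before) and GGAANTTCC (158 to 150 bases before) overlap.
Cxcl10: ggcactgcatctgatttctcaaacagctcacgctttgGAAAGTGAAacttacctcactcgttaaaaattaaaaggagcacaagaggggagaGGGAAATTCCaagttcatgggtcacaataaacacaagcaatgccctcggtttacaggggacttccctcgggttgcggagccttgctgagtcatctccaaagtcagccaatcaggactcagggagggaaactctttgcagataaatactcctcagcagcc
The Ccl3 window lies at chr11:83649379-83649628 on the minus strand, and its capitals mark GAAANNGAA on the other strand, 39 to 31 bases before the start.
Ccl3: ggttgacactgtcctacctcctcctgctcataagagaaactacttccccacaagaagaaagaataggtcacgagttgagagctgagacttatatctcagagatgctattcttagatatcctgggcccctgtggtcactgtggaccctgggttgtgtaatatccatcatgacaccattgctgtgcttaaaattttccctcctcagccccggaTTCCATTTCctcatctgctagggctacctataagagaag
No match was found for Ccl6, Ccl8, Ccl9, Il1b and Tnf, which says only that these letters are not in those windows.

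Il1b and Tnf encode interleukin-1 beta and tumour necrosis factor. Both probes were well above background on TAC replicate 1 and on no other of the 7 arrays. Il1b was at -4.57 there, and its signal was -5.65, -6.73 and -6.66 on the Sham arrays and -6.53, -6.29 and -6.64 on TAC replicates 2 to 4. The level on TAC replicate 1 was at least 1.32-fold above Sham, while the bound against the other TAC arrays was under 1 and no fold is given. Tnf was at -4.15 on TAC replicate 1, with a signal of -6.01, -6.42 and -6.47 on the Sham arrays and -6.47, -6.16 and -6.49 on the other TAC arrays. For Tnf the bounds were at least 1.76-fold over Sham and at least 1.33-fold over the other TAC arrays. With normexp background correction and its offset of 50 units, the excess on TAC replicate 1 was 0.21 for Il1b, 0.27 for Tnf and 0.74 for Ccl3. These are the 3 genes that did not reach 2-fold with it. The offset alone shrinks the folds of dim probes, so the part of the background correction itself cannot be read from these values. The same correction gave 1.52 for Ccl4, 1.17 for Ccl2 and 2.86 for Cxcl10.

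**Figure D2:**
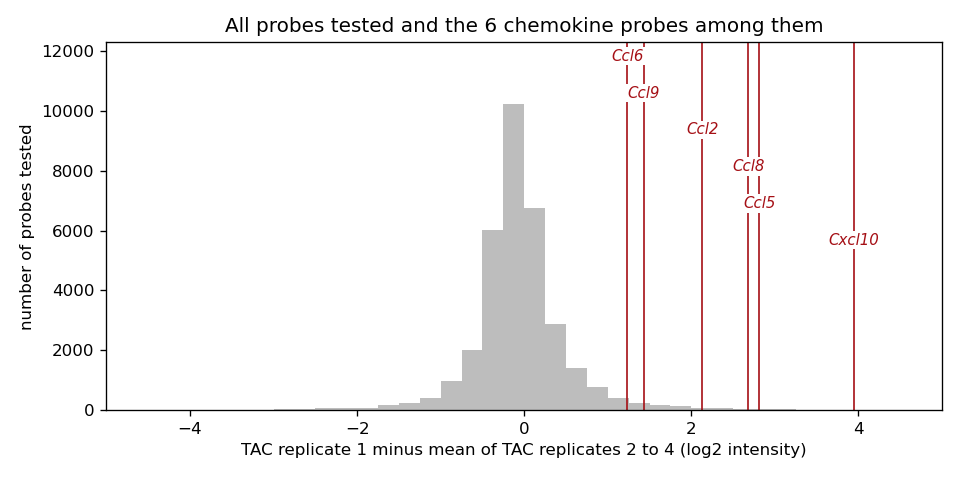
Number of probes tested (vertical axis) by their excess on TAC replicate 1 over the mean of TAC replicates 2 to 4 (horizontal axis, log2), with lines at the 6 chemokine genes that passed the filter on dim probes. Most probes lie near 0, and the lines stand between 1.23 for Ccl6 and 3.94 for Cxcl10.

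Among the 33341 probes with a value, the excess on TAC replicate 1 ranked 67 for Ccl5, 80 for Ccl8, 187 for Ccl2, 588 for Ccl9 and 811 for Ccl6. Among the probes tested that have a gene symbol, the 5 of largest excess were those of Cd5l (4.55), Sirpb1a (4.43, and 4.10 at another probe), Il25 (4.20) and Tnfsf8 (4.06). Their mean signal on the other TAC arrays was between -6.35 and -4.93, under the mean of the lowest signals well above background there (-4.56), so these differences and their order are against dim signals. Cd5l encodes a protein secreted by macrophages, and Sirpb1a a receptor of myeloid cells.

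Sham replicate 1, the array known only from the table, also read high for several of these genes. Its level was the highest of the 4 Sham arrays for 7 of 10 genes and second of all 8 arrays, after TAC replicate 1, for 7 of 10 (Ccl2, Ccl3, Ccl4, Ccl5, Ccl8, Cxcl10 and Tnf). That order of the arrays held for 3.83% of all probes tested. The signal on Sham replicate 1 was at least 2-fold above the mean of Sham replicates 2 to 4 for 4 genes, against 0.980% of all probes tested. Of these, Ccl5 and Cxcl10 were well above background on the other Sham arrays, while Ccl3 and Ccl4 were compared with signals mostly at background. The median excess over the 10 genes was 0.67, and -0.05 over all probes tested.

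In the table Ccl5 was at 1.90 on Sham replicate 1, 0.76, 0.08 and 0.55 on Sham replicates 2 to 4, and 3.11, 0.24, 0.58 and 0.05 on the TAC arrays. Cxcl10 was at -0.72, -2.93, -2.59 and -1.24 on Sham replicates 1 to 4, and at 1.14, -3.17, -2.18 and -3.11 on the TAC arrays. For both, Sham replicate 1 was above TAC replicates 2 to 4, and it was 2.70-fold (Ccl5) and 2.91-fold (Cxcl10) above the mean of the other Sham arrays. Ccl8 was at 0.08 there, 1.63-fold above them. Ccl4 was at -3.05 and Ccl3 at -3.90 on Sham replicate 1, which is 2.35 and 2.76 above the mean signal of the other Sham arrays on the log2 scale. Of those arrays, Sham replicate 2 was well above background for Ccl4 and none for Ccl3, so no fold is given. For Il1b and Tnf, also dim on the other Sham arrays, the signal on Sham replicate 1 was 0.65 and 0.60 above their mean. Ccl6 (1.23-fold) and Ccl9 (1.13-fold) were above the other Sham arrays by less than the SD of those, and Ccl2 by 0.14 against an SD of 0.09. TAC replicate 1 remained above Sham replicate 1 for each of the 10 genes, by 1.05 (Ccl6) to 1.85 (Cxcl10). With all 8 arrays the TAC minus Sham difference was 0.17 for Ccl5, 0.32 for Ccl8 and 0.04 for Cxcl10.

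**Figure D3:**
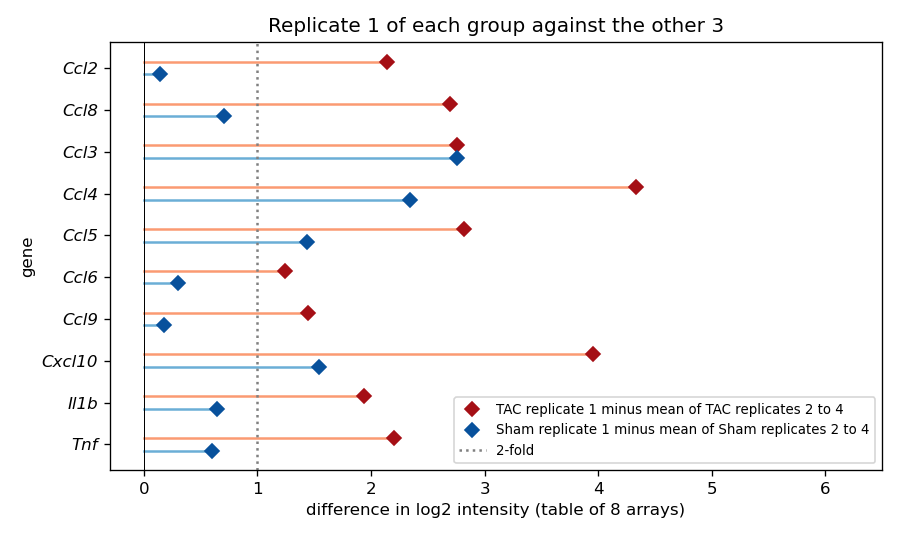
Difference in log2 intensity (horizontal axis, table of 8 arrays) between replicate 1 and the mean of replicates 2 to 4 of the same group, for each gene, in TAC (red) and Sham (blue), with a dotted line at 2-fold. TAC replicate 1 is past the line for 10 genes and Sham replicate 1 for Ccl3, Ccl4, Ccl5 and Cxcl10, but for Ccl3, Ccl4, Il1b and Tnf most arrays of replicates 2 to 4 were not well above background.

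On the genome, 7 of the 10 genes lie on chromosome 11, in the order Ccl2, Ccl8, Ccl5, Ccl9, Ccl6, Ccl3 and Ccl4 (RefSeq, GRCm38.p6). Between Ccl2 and Ccl8 lie 3 other coding genes, Ccl7, Ccl11 and Ccl12, while Ccl5, Ccl9, Ccl6, Ccl3 and Ccl4 have 0 coding genes between them. The genes between Ccl2 and Ccl8 did not share 1 pattern. Ccl12, which encodes another ligand of Ccr2, was 2.20 above the other TAC arrays on TAC replicate 1. Ccl7, named here after its value was seen, was 3.18 above them with a signal well above background only there. Ccl11, which encodes the eosinophil attractant eotaxin, was well above background on all 7 arrays with an excess of 0.28. Next to Tnf lie Lta and Ltb, and next to Il1b lies Il1a. Ltb was 1.70 above the other TAC arrays on TAC replicate 1, and Il1a 4.15 with a signal well above background on that array alone, whereas Lta was lower there, by -0.61, and not tested.

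Other genes of the pathway and markers of cell types were described in 15 lists with 216 genes, of which 158 were tested. limma called 0 of them at an adjusted p of 0.05 (the smallest was 0.273), and 5 were higher and 8 lower at an unadjusted p of 0.05, beside 1462 higher and 2814 lower of all 33364 probes. Of the 14 receptors of these ligands, 12 were tested, of which 8 had a higher and 4 a lower TAC mean, with a median difference of 0.25 and of 0.01 without TAC replicate 1. On TAC replicate 1 the excess was past 2-fold for 4 of the 12 receptors, beside 3.60% of all probes. Among these 4 were Ccr2 (2.09), Cxcr3 (1.79) and Tnfrsf1b (1.24). Tnfrsf1a, the list's brightest probe, differed there by -0.06, and Il1r1 by 0.49. On Sham replicate 1 Cxcr3 was 1.20 above the other Sham arrays. Ccr1 and Ackr4 were not well above background on any of the 7 arrays.

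Of 28 other chemokines 17 were tested, with 9 higher and 8 lower in TAC and a median difference of 0.01, or -0.03 without TAC replicate 1. Besides Ccl12, the tested genes with the largest excess on TAC replicate 1 were Xcl1 (2.12) and Cxcl16 (1.55). Xcl1, a product of T and NK cells, was dim on TAC replicates 2 to 4 (-4.86, -4.90 and -5.39). On Sham replicate 1 the list had a median excess of 0.14 over the other Sham arrays, with Ccl12 at 1.71 and Xcl1 at 1.69, the latter partly against a dim signal. On TAC replicate 1, 5 of the tested genes were past 2-fold upwards and 1 downwards (Ccl28, -1.32), beside 3.60% and 3.30% of all probes. Cxcl9, a ligand of Cxcr3 like Cxcl10, was 1.14 higher there. Of 24 other cytokines 7 were tested, with 5 higher and 2 lower, and 8, among them Il6 and Il10, were not well above background on any array. In the list of cytokine processing, 9 of 11 genes were tested, with 8 higher and 1 lower in TAC and a median of 0.10, which turned to -0.06 without TAC replicate 1. There Casp1, whose protease matures interleukin-1 beta, was 1.15 above the other TAC arrays on TAC replicate 1, Casp4 1.58 and Gsdmd 0.75. Adam17, whose protease sheds tumour necrosis factor, differed by -0.71, and Nlrp3 was at -4.65 there and between -4.14 and -3.80 on the others.

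NF-kB components and feedback targets went both ways on TAC replicate 1. Of 22 genes 20 were tested, 13 higher and 7 lower in TAC. The median difference was 0.07, or -0.01 without TAC replicate 1, and the median excess on that array 0.07. Traf1 (1.98), Sele (1.23, against a mostly dim signal) and Nfkbie (1.21) were past 2-fold upwards, 3 of the 20, beside 3.60% of all probes. Tnfaip3 differed by 0.73 and Bcl3 by -0.70, Rela by 0.03 and Nfkbia by 0.05. Interferon-stimulated genes, the class to which Cxcl10 belongs, stood higher on TAC replicate 1, with a median excess of 1.18. Of 16 genes tested, 10 were past 2-fold there, beside 3.60% of all probes. Irf7 was 2.24, Oas1a 2.11 and Oasl2 1.88 above the other TAC arrays. Their median TAC minus Sham difference was 0.42 (14 higher and 2 lower), and 0.20 without TAC replicate 1.

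**Figure D4:**
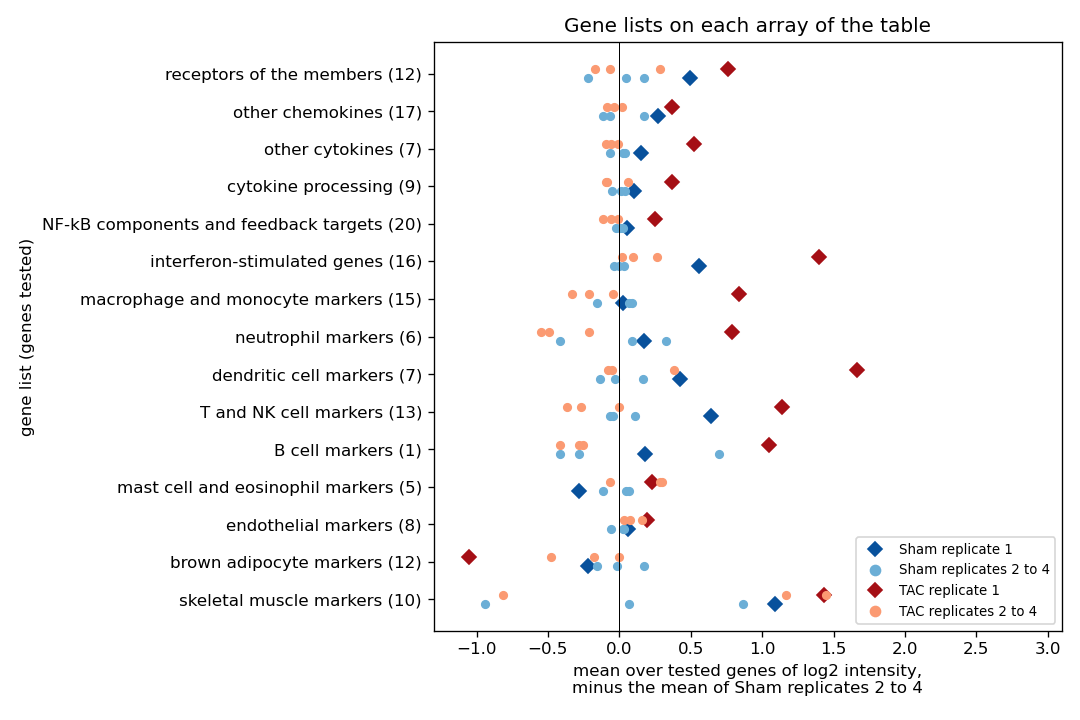
Mean over the tested genes of each list (vertical axis, number of genes tested in brackets) of the log2 intensity minus the mean of Sham replicates 2 to 4 (horizontal axis), for each of the 8 arrays of the table. TAC replicate 1 (red diamonds) is at 1.66 for dendritic cell markers, 1.40 for interferon-stimulated genes, 1.14 for T and NK cell markers and -1.05 for brown adipocyte markers.

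Some markers of leukocytes were past 2-fold upwards on TAC replicate 1 and others differed little or were lower, and their part in the chemokine levels was not tested. Of all probes, 3.60% were past 2-fold upwards on TAC replicate 1 and 3.30% downwards. Of 17 macrophage and monocyte markers 15 were tested, and 6 were past 2-fold there upwards and 1 downwards (Cd163, -1.02), with Trem2 at 3.14, Gpnmb at 2.38 and Fcgr1 at 2.37, but Cd14 at -0.03 and Mertk at -0.02. The summed intensity of the list, in units of the 75th percentile, was 53.9, 50.5, 50.9 and 51.4 on Sham replicates 1 to 4, and 79.6, 51.0, 42.8 and 47.9 on the TAC arrays, with Itgam as the brightest probe. Timd4 was not well above background on any array. Of 8 dendritic cell markers 7 were tested and 5 were past 2-fold, led by Itgax (3.15), Ccr7 (2.68) and Cd209a (2.32), while the summed intensity was mostly that of 1 probe of Siglech, which differed by -0.10 where its other probe differed by 1.66. Of 16 T and NK cell markers 13 were tested and 8 were past 2-fold, among them Gzma (2.64), Cd3d (1.98) and Gzmb, which was at -0.85 there and dim on TAC replicates 2 to 4 (-4.84, -4.15 and -4.85). Their summed intensity was 18.3, 16.4, 15.3 and 15.5 on Sham replicates 1 to 4, and 20.8, 15.7, 15.4 and 14.3 on the TAC arrays, with Cd4 as the brightest probe, and Cd8b1 was not well above background on any array. Cd4, Nkg7 and Cd3e, the brightest of the list, differed on TAC replicate 1 by -0.07, 0.36 and 0.06, and another probe of Nkg7 by 2.43. On Sham replicate 1, where Ccl5, Ccl4 and Cxcl10 were also high, Gzmb was 2.61 above the other Sham arrays. Its signal on Sham replicate 3 was dim. The median of this list was 0.65 above the other Sham arrays on Sham replicate 1. The corresponding medians were 0.92 for skeletal muscle markers, 0.58 for interferon-stimulated genes and 0.04 for macrophage markers.

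Of 12 neutrophil markers 6 were tested. S100a9 (3.26) and S100a8 (at -1.66, and mostly dim on TAC replicates 2 to 4, at -4.81, -4.91 and -4.66) were past 2-fold on TAC replicate 1, beside 3.60% of all probes. Csf3r, the list's brightest probe, differed there by -0.05, and Mpo, Ltf and Mmp9 were not well above background on any array. Cd79b, the 1 of 7 B cell markers that was tested, was 1.35 higher there. The medians there were 0.08 for mast cell and eosinophil markers and 0.14 for endothelial markers. Brown adipocyte markers had a median of -0.37 there, with Elovl3 (-4.07), Dio2 (-1.99) and Ppargc1a (-1.07) past 2-fold downwards (3 of 12, beside 3.30% of all probes), and their summed intensity was 3837 on TAC replicate 1 and between 4861 and 5808 on the 7 other arrays. The mean of the skeletal muscle markers, relative to Sham replicates 2 to 4, was 1.09, -0.94, 0.87 and 0.07 on Sham replicates 1 to 4, and 1.43, 1.17, -0.82 and 1.45 on the TAC arrays. They were thus high on replicate 1 of both groups and also on 3 other arrays, and their part in the chemokine levels was not tested.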

How the data were processed

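Per the file headers and labels, the authors labelled total RNA with Cy3 and extracted spot intensities with Agilent Feature Extraction 10.7.1.1. The deposited scanner intensities of 7 arrays are linear values after background subtraction, with no scaling between arrays. The deposited table of intensities of 8 arrays was, by its values, divided by a 75th percentile of each array (column 75th percentiles 1.002 to 1.004) and rounded, and its genes were not centred. Its column medians were 0.094, 0.094, 0.092 and 0.095 for Sham and 0.096, 0.098, 0.093 and 0.091 for TAC, replicates 1 to 4. How it was scaled is not stated.

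Of 59305 non-control spots per array, outlier spots (134 to 191) were left out and saturated spots kept. The log2 intensity minus the array's 75th percentile (453.6 to 604.5 units) was averaged over the spots of a probe. A probe counts as well above background where at least 0.5 of its spots are. Tested were the 33364 of 55681 probes with this on at least 3 arrays and a value on at least 2 arrays per group. The groups were compared on these levels by limma 3.58.1 (lmFit, eBayes) under R 4.3.3, p-values were adjusted by Benjamini-Hochberg, and the fit was tested on simulated data.

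A RefSeq gene table (GRCm38.p6) named 28026 probes (50.3%; 94.1% of RefSeq accessions), with 0 naming several genes. The probe with the highest mean level stands for a gene with several. The members and lists were chosen with earlier results of these data known. Named were all 10 members, receptors and NF-kB genes, and from each list the 3 genes with the highest level and the 3 with the largest difference on TAC replicate 1, except for 1 gene that is not reported here. Others named, such as Il1a or Cxcl9, were chosen after their values were seen or as neighbours and defining markers.

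Alternatives were normexp (offset 50, on median signals, since the files hold no mean signal), median centring, quantile normalization, the table, other filters on dim probes, outlier spots kept, all probes of a gene averaged, the methods' t-test, the number of the replicate as a term and each array left out.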

Additional observations from a re-analysis of the deposited data

Results flagged for a closer look

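In each group of 4 arrays, the gap between the outermost array and its nearest neighbour was taken as a share of the group's whole range, for the TAC arrays from the scanner files and for the Sham arrays from the table. A share above Dixon's critical value for 4 values marks an array that lies far from the other 3, and chance gives this in about 1 of 20 groups of unselected values, a rate that does not hold here because the genes were chosen with earlier results known. Of the 20 groups examined, 4 were past it, 3 of TAC and 1 of Sham. How many of all probes tested pass it was not computed, so this count has no comparison. The share was 0.860 for Tnf, 0.854 for Ccl4 and 0.8293 for Ccl5, each with TAC replicate 1 as the high array. Ccl5 passed only narrowly, and Il1b, at 0.8287, fell short as narrowly. For Ccl3 it was 0.850 in Sham, with Sham replicate 1 as the high array. The Tnf, Ccl4 and Ccl3 groups include arrays not well above background, where the spread is that of dim signals. The causes were not tested.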

How the results depend on the processing

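limma called 0 probes higher and 0 lower after TAC. Normexp gave 1 lower, and the methods' t-test at its own threshold 1602 higher and 2587 lower (0 after adjustment). With each array left out the counts were 0 to 7 higher and 0 to 1 lower, 7 and 1 without TAC replicate 4. The members' adjusted p-values stayed between 0.460 and 0.989 under the alternatives run.

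The TAC minus Sham difference turned negative without TAC replicate 1 for Ccl2, Ccl5, Ccl8 and Cxcl10. With each array left out it ranged from -0.21 to 0.65 for Ccl2, -0.16 to 0.86 for Ccl5, -0.16 to 0.85 for Ccl8 and -0.55 to 0.95 for Cxcl10. The table without TAC replicate 1, an alternative chosen after seeing the data, gave -0.27, -0.53, -0.36 and -0.95, and without replicate 1 of both groups -0.23, -0.17, -0.18 and -0.56. Among the untested, Ccl4, Il1b and Tnf turned negative too, by -0.43, -0.14 and -0.07 without TAC replicate 1. The number of genes with a higher TAC mean was 3 to 10 with each array left out, and 3 in both of these tables. Of the other single-gene differences, 2 moved by more than the spread and 170 did not, some with a change of sign as above; for TAC replicate 1, 7 moved and 43 did not. The causes were not tested.

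With the number as a replicate block, scanner files gave -0.21, -0.16, -0.16 and -0.55 for the same 4 genes, since TAC replicate 1 has no Sham partner there. The table, where it has one, gave 0.27, 0.17, 0.32 and 0.04, and limma called 0 probes in either. With each probe's group mean subtracted, same-numbered arrays correlated by 0.269, 0.020, 0.056 and 0.020 over the table. Over the scanner files the values were 0.002, -0.026 and -0.021. Own numbers correlated best only for replicate 1, in the table, so the other numbers gave no sign of pairing. Whether the value of replicate 1 reflects pairing was not tested. Signal near background limits Ccl3, Ccl4, Il1b and Tnf.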

Other observations

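The following values were picked after they were seen. The Csf3 probe, which encodes the growth factor of granulocytes, was at -1.10 on TAC replicate 4 and between -6.98 and -6.18 on the 6 other arrays, where it was not well above background. It rests on 1 spot. The Lif probe was at -6.80 on TAC replicate 1 and between -4.81 and -3.78 on the other 6 arrays. This cytokine of the interleukin-6 family was well above background only on TAC replicate 3, so these are dim signals. Ifng, which encodes interferon gamma, was at -3.58 on TAC replicate 1 and was well above background on no other of the 7 arrays.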
